A study of Mus musculus with 120 samples.

Results

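The 8 genes described here encode lineage and state transcription factors of T helper and regulatory T cells: Foxp3, Ikzf2, Tbx21, Gata3, Bcl6, Eomes, Tcf7 and Tox. They were taken by gene name from both gene tables, in which all 8 had a row, out of 55487 genes in both tables. The tissue was the immunological niche (IN), a porous polycaprolactone scaffold placed under the skin of female mice, where immune cells gather and can be biopsied again and again. Samples came from 5 NOR/LtJ mice, a nondiabetic strain that shares the diabetes-associated MHC haplotype, and from NOD/ShiLtJ mice, which develop autoimmune diabetes spontaneously. The NOD mice were divided by outcome into 10 progressors to hyperglycemia and 11 numbered nonprogressors. NOR INs gave 4 samples at 6 weeks of age, 5 each at 10 and 14 weeks, 4 at 18 weeks and 5 at 22 weeks. Nonprogressor INs were sampled at 6 weeks (n = 4 in batch 1 and 7 in batch 2), 14 weeks (n = 4 and 6) and at 10, 18 and 22 weeks (n = 4 each, batch 1). A further 6 samples were labelled by day after implant and mouse number, without an age in weeks. Progressor INs were sampled at 6 weeks of age and at −5, −3, −1 weeks and onset (n = 5 per batch at each), and at −7 weeks (n = 8, all batch 2). No treatment other than the scaffold is named for any group, each removed IN was replaced by a new one, and the later samples of a mouse therefore came from other scaffolds than its first.

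CD4+ T cells take on distinct programs after activation, and each program is held by a small set of transcription factors. Foxp3 is the lineage factor of regulatory T cells (Tregs), which restrain autoimmunity, and Ikzf2 encodes Helios, found in many Tregs. Tbx21 encodes T-bet, the Th1 factor, and the related T-box factor Eomes is used by cytotoxic T cells and NK cells. Gata3 is the Th2 and innate lymphoid cell factor and is also a keratinocyte and hair follicle gene, Bcl6 directs follicular helper T cells and germinal centre B cells and is made by many other cells, Tcf7 encodes TCF-1 of naive and memory T cells, and Tox is known from thymic development and exhausted CD8+ T cells. In type 1 diabetes, Th1 and cytotoxic T cells attack the islets and Tregs hold them back.

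Read depth was 4722396 to 56185434 expected counts per sample in batch 1 (74 samples) and 29029239 to 43880986 in batch 2 (46 samples). One library stood apart, the 18-week IN of NOR mouse 5, in which 85.7% of 8616431 counts lay on the single gene row CT010467.1 and all 8 factors together had 20 counts. The T cell genes that define the label were present: the median level of Cd4 was 5.85 CPM (counts per 1000000 counts of a library, scaled by TMM, the trimmed mean of M values) in batch 1 and 6.34 CPM in batch 2, and that of Cd3e was 1.38 and 2.08 CPM. Cd8b1 was low, at medians of 0.0501 and 0.0581 CPM, with 30 samples at 0 counts. In these bulk samples, fewer cells of a type and less RNA per cell cannot be told apart.

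Start-site sequences are shown for the T-box pair Tbx21 and Eomes, whose levels went together over samples, and for Bcl6, which rose in progressors where Eomes fell. The windows are the 250 bases before a RefSeq start on GRCm38.p6, 5′ to 3′ on the strand of the gene, and none of these windows touches an annotated exon. Capitals mark matches, on either strand, to 9 searched motifs: GGTGTGA (T-box, in 3.33% of all 32851 windows), TGTGGTT (Runx, 4.40%), AGATAA (the motif of GATA factors, 9.99%), AGGAAGT (ETS, 7.69%), CTTTGAA (TCF/LEF, 4.46%), TTCNNNGAA (STAT, 7.02%), TGANTCA (AP-1, 6.75%), TATAAA (the core of the TATA box, 12.4%) and CCAAT (33.8%). Of the 8 factors, 6 had a window, and Ikzf2 and Tox had none.
Tbx21 (chr11:97115332-97115581, minus strand): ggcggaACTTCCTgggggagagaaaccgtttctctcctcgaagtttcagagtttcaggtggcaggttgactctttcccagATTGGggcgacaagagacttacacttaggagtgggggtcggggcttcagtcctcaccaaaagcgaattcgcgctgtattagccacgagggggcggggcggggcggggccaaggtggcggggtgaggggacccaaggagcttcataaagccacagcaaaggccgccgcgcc
Eomes (chr9:118477939-118478188, plus strand): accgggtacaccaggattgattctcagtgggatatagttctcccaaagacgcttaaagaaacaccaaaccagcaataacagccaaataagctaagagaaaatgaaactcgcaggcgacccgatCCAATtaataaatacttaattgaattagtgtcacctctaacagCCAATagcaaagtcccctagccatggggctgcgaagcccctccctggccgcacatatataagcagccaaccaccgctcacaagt
Bcl6, inner start (chr16:23981284-23981533, minus strand): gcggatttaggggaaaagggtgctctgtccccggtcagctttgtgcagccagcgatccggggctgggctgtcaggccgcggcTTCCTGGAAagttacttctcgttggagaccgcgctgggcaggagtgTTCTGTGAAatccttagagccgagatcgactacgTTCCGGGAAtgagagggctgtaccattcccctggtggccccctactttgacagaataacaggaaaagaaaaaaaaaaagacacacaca
Bcl6, outer start (chr16:23988853-23989102, minus strand): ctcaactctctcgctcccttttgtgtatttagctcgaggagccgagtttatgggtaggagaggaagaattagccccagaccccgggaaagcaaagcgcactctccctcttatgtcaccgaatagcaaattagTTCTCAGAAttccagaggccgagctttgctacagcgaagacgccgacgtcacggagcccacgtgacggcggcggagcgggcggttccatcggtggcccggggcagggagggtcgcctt
Tbx21 and Eomes held no match in common other than CCAAT, at 1 and 2 places, and Tbx21 alone of the pair held an ETS match, 244 bases before its start. The inner Bcl6 window held 3 STAT matches, at 168, 122 and 88 bases before the start, and the outer window held 1. No T-box, Runx, GATA or TCF/LEF letters were found in these 4 windows, which says nothing of other parts of the genes.

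On GRCm38, Foxp3 lies at chromosome X, 7573644 to 7595245 (plus strand), Ikzf2 at chromosome 1, 69531214 to 69687245 (minus), Tbx21 at chromosome 11, 97098071 to 97115331 (minus), Gata3 at chromosome 2, 9857078 to 9890034 (minus), Bcl6 at chromosome 16, 23965052 to 23988852 (minus), Eomes at chromosome 9, 118478212 to 118486132 (plus), Tcf7 at chromosome 11, 52252371 to 52283014 (minus) and Tox at chromosome 4, 6686353 to 6991557 (minus). All are protein-coding. Exons of other annotated genes overlap those of Foxp3 (4 genes, among them Flicr on the same strand), Gata3 (2 genes) and Ikzf2, Bcl6, Eomes and Tox (1 gene each), so their levels are uncertain to that extent, since the strand setting of the counting is not given in the sources used here. Per kilobase of exon, Bcl6 was the most abundant, at a median of 8.15 CPM per kb in batch 1 and 9.75 in batch 2. Gata3 followed at 0.855 and 1.22 CPM per kb, Tcf7 at 0.613 and 0.815, Foxp3 at 0.529 and 0.476, and Ikzf2 at 0.520 and 0.993. Eomes (0.300 and 0.359 CPM per kb), Tbx21 (0.214 and 0.253) and Tox (0.0981 and 0.141) were lowest. In batch 2 Ikzf2 came before Tcf7. The sample ranges of all neighbours in this order overlapped in both batches, and differences between genes were not tested.

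**Figure D1:**
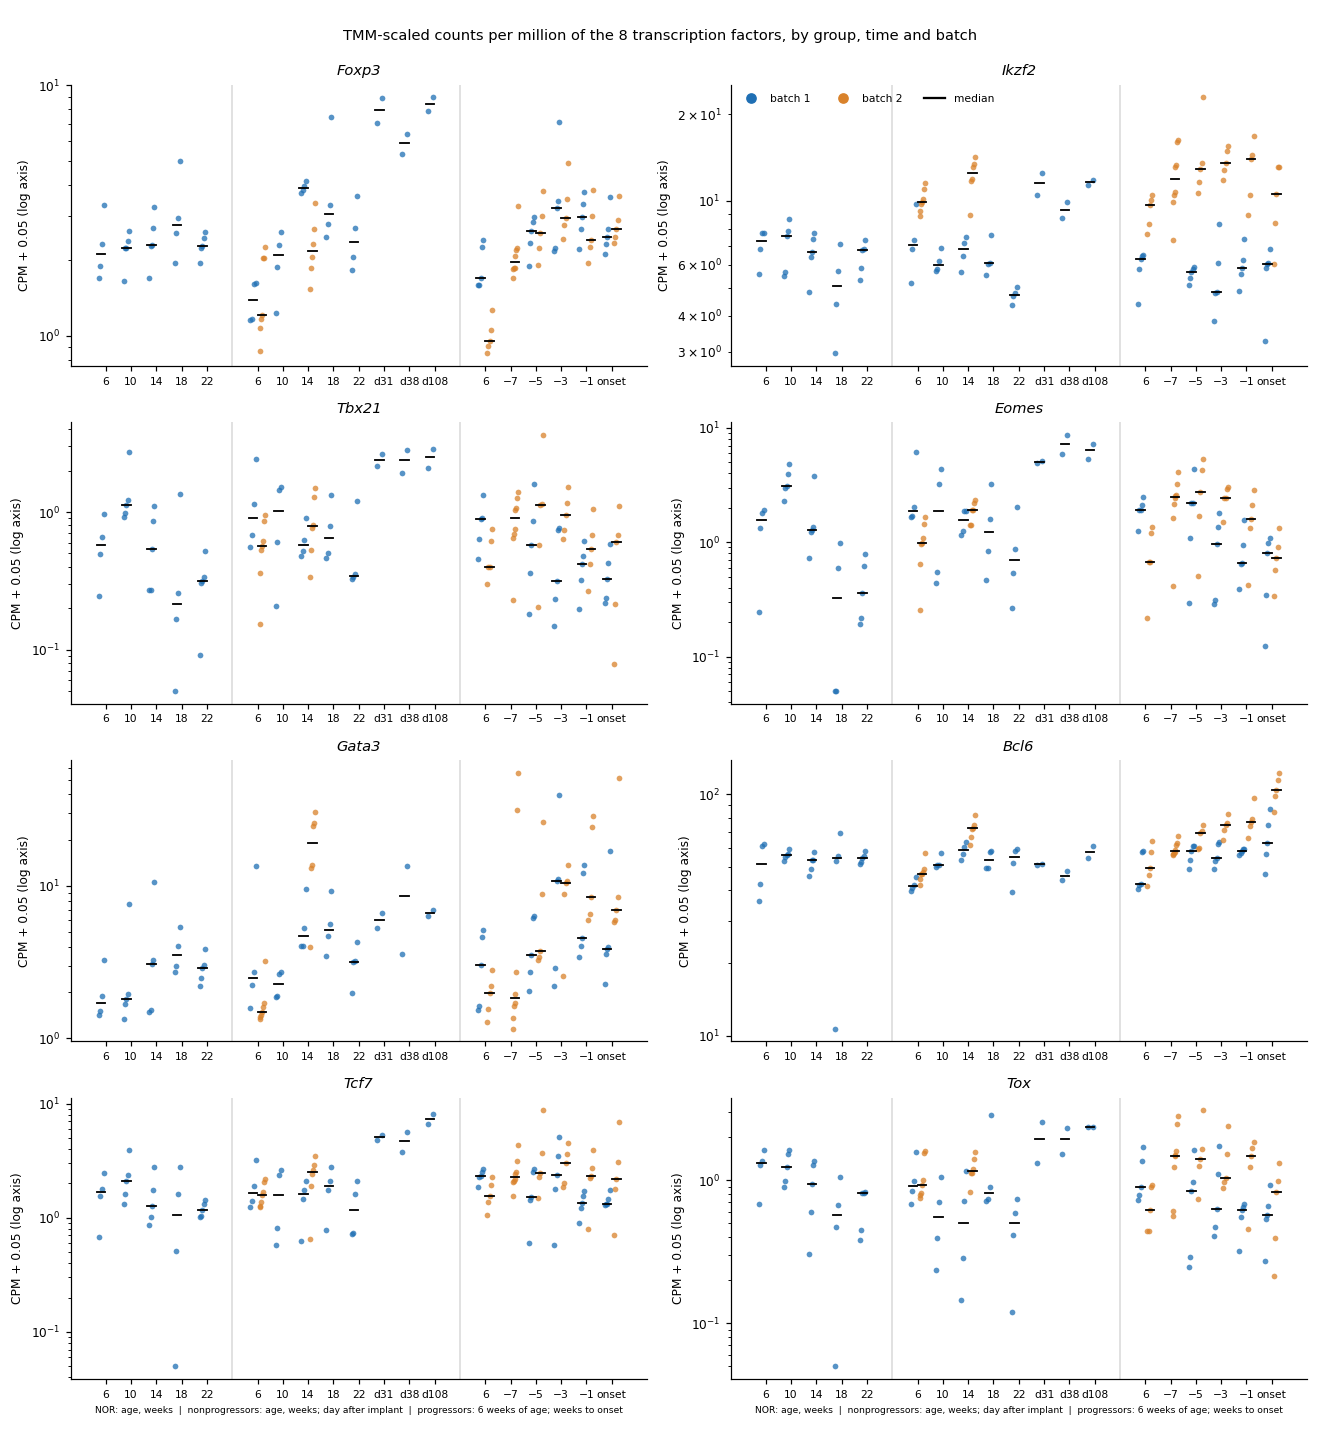
CPM plus 0.05 on a log axis for each factor, 1 point per sample (blue, batch 1; orange, batch 2) with the group median as a bar, against age in NOR and nonprogressors, day after implant, and weeks to onset in progressors. Foxp3 in progressors of batch 2 goes from 0.801 to 1.22 CPM at 6 weeks of age to 1.86 to 3.72 CPM at −5 weeks, and Bcl6 in the same mice from 41.6 to 63.8 to 84.6 to 123 CPM at onset.

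The comparisons asked whether the factors differed by strain or outcome or changed on the way to hyperglycemia, or moved with age. A factor passed where its adjusted p was under 0.05 over all genes tested by edgeR's quasi-likelihood test with Benjamini-Hochberg adjustment. From 6 weeks of age to the mean of −5 weeks to onset, 3 of 8 factors rose in progressors (Foxp3, Gata3 and Bcl6) and none fell, where 39.5% of all genes passed and 19.6% rose. At −7 weeks against 6 weeks, 1 of 8 rose (Foxp3), where 12.5% of genes passed and 5.91% rose. Between −5 weeks and onset, Bcl6 rose and Eomes fell, 2 of 8, where 1.77% of genes passed, 0.827% rising and 0.945% falling. None of 8 passed between NOD and NOR mice (8.98% of genes), between progressors and nonprogressors at 6 weeks (0% of genes, 0 of 19082, with 985 at an unadjusted p under 0.05) or between progressors at onset and nonprogressors at 14 weeks (0.0158% of genes). With age, 1 of 8 fell in NOR mice (Eomes; 3.59% of genes passed and 1.59% fell) and 2 of 8 rose in nonprogressors (Foxp3 and Bcl6; 30.2% of genes passed and 13.3% rose). None of 8 differed in age slope between the strains (1.65% of genes). The median log2 fold change of the 8 was 0.17 from 6 weeks to −5 weeks to onset, beside 0.01 over all genes tested, and −0.29 from −5 weeks to onset, beside −0.02. The progressor comparisons share their 6-week or −5-week samples with each other. In those fits and in the fits of age and of the slope difference, the repeated INs of a mouse entered as separate samples. The p-values of all these fits therefore measure the spread between INs.

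**Figure D2:**
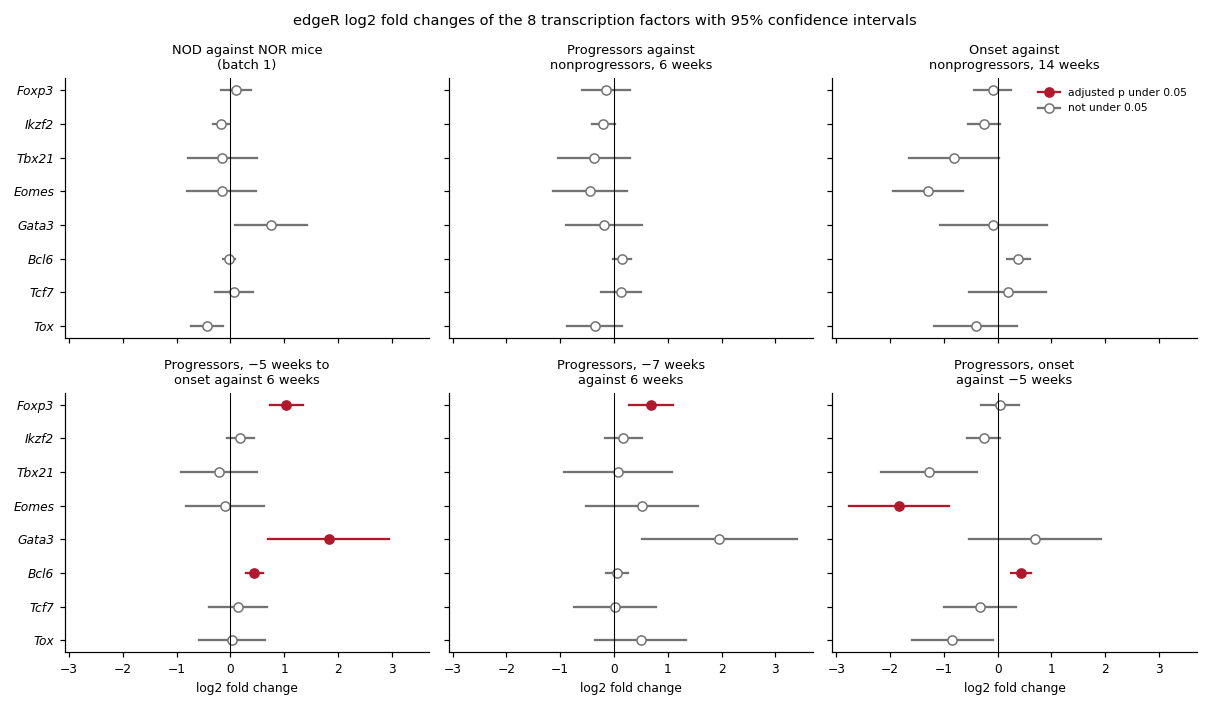
The log2 fold change of each factor (point) with its 95% confidence interval (line) in 6 comparisons, filled red where the adjusted p was under 0.05. Foxp3, Gata3 and Bcl6 lie to the right of 0 from 6 weeks to −5 weeks to onset, and Eomes and Bcl6 lie on opposite sides of 0 between −5 weeks and onset.

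The Treg factor Foxp3 rose between 6 weeks of age and −7 weeks and stayed above its first level. In batch 1 progressors its levels at 6 weeks of age were 1.54, 1.55, 2.22, 1.64 and 2.35 CPM (mice 1 to 5), and at −5 weeks they were 2.78, 2.56, 1.84, 2.29 and 2.92 CPM. In batch 2 progressors (mice 6 to 10) the 6-week levels were 0.863, 1.01, 0.90, 0.801 and 1.22 CPM, and the −5-week levels were 1.86, 2.96, 3.72, 2.51 and 2.18 CPM. The ranges of 6 weeks and −5 weeks overlapped in batch 1 and did not overlap in batch 2. Levels at onset were 2.62, 2.42, 2.28, 2.07 and 3.52 CPM in batch 1 and 3.56, 2.30, 2.62, 2.85 and 2.44 CPM in batch 2, so that no further rise stood out after −5 weeks. The mean of −5 weeks to onset exceeded the 6-week level in 10 of 10 mice. The log2 fold change was 1.04 ± 0.15 (SE, adjusted p = 3.54e-07, edgeR), and it was 0.69 ± 0.20 already at −7 weeks (adjusted p = 0.0180), where the 8 samples ran from 1.64 to 3.25 CPM with a median of 1.92 CPM. Of those 8 samples 4 came from mice 1 to 4, whose other INs were in batch 1. Within batch 2 the −7-week change was 1.11 (adjusted p = 0.000401, edgeR), and without a batch term it was 0.40 and did not pass (adjusted p = 0.183). Between −5 weeks and onset the difference was 0.05 and did not pass.

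The summed level of the 13 T cell genes had a median of 40.4 CPM in batch 1 and 26.1 CPM in batch 2 at 6 weeks, 47.1 and 49.1 CPM at −5 weeks, and 35.2 and 41.8 CPM at onset. Lat weighs most in this sum, with medians of 20.2 and 18.0 CPM over all samples of batch 1 and batch 2. Cd4 came next, at 5.85 and 6.34 CPM. The T cell covariate was the mean log2 level of the CD3 genes alone (Cd3d, Cd3e, Cd3g and Cd247). With this T cell content as a covariate, the Foxp3 change from 6 weeks to −5 weeks to onset was 0.66 (adjusted p = 6.39e-05, edgeR). The change at −7 weeks was 0.43 and no longer passed (adjusted p = 0.0717). Foxp3 counts per 100 counts of these CD3 genes gave a median of 66.0 at 6 weeks and 107.5 at onset in batch 1 and 39.1 and 62.3 in batch 2. In batch 1 the ratio ran from 62.2 to 122 at 6 weeks and from 46.3 to 127 at onset, so the ranges overlapped.

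Ikzf2, which encodes the Treg-associated factor Helios, did not pass in any of these comparisons. In batch 1 progressors it ran from 4.35 to 6.45 CPM at 6 weeks (median 6.25) and from 5.04 to 5.86 CPM at −5 weeks (median 5.62). In batch 2 it ran from 7.63 to 10.4 CPM at 6 weeks (median 9.60) and from 10.6 to 22.8 CPM at −5 weeks (median 12.8). Its log2 fold change from 6 weeks to −5 weeks to onset was 0.19 ± 0.12 (SE, adjusted p = 0.223, edgeR), at −0.05 within batch 1 and 0.45 within batch 2. The median of Ikzf2 was higher in batch 2 than in batch 1 at every shared group and time, so its levels are compared only within a batch.

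**Figure D3:**
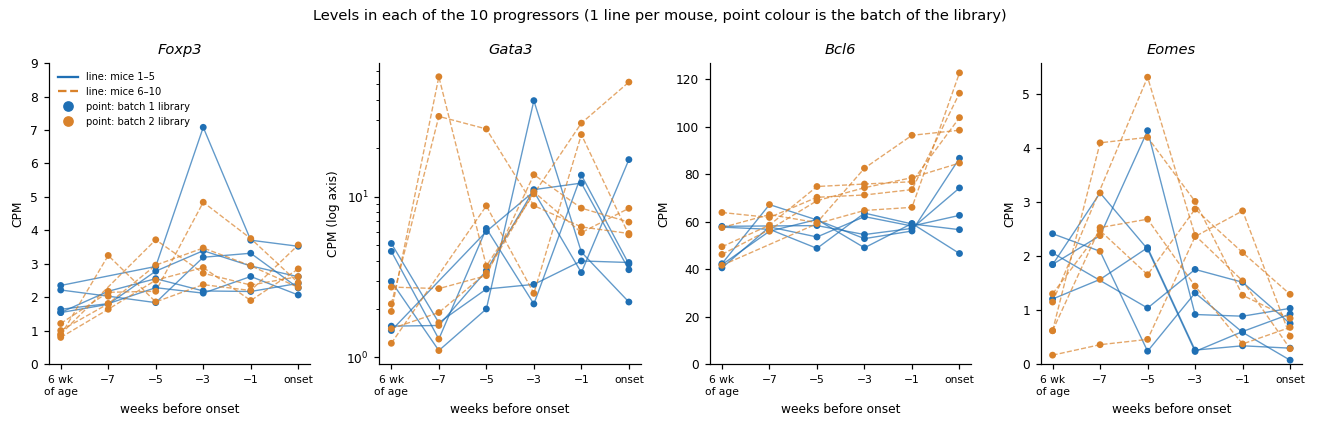
CPM of Foxp3, Gata3 (log axis), Bcl6 and Eomes in the 10 progressors at 6 weeks of age and at −7, −5, −3, −1 weeks and onset, with 1 line per mouse (solid blue, mice 1 to 5; dashed orange, mice 6 to 10) and points coloured by library batch. Eomes ends lower at onset than at −5 weeks in 9 of 10 mice, and Bcl6 ends higher in 9 of 10.

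The T-box factors Tbx21 and Eomes varied together, and Eomes fell towards onset in progressors. In batch 1 Eomes was at 1.85, 1.21, 2.41, 1.84 and 2.06 CPM at 6 weeks, 4.32, 2.16, 0.241, 2.13 and 1.04 CPM at −5 weeks, and 1.03, 0.297, 0.0747, 0.930 and 0.752 CPM at onset. In batch 2 it was at 0.620, 0.168, 1.15, 0.620 and 1.30 CPM at 6 weeks, 4.2, 0.460, 5.31, 2.68 and 1.66 CPM at −5 weeks, and 0.85, 0.519, 0.288, 0.681 and 1.29 CPM at onset. Eomes was thus low at 6 weeks in batch 2, high at −5 weeks in most mice, and at or below 1.29 CPM at onset in all of them, with ranges at −5 weeks and onset that overlapped in each batch. Its log2 fold change between −5 weeks and onset was −1.84 ± 0.46 (SE, adjusted p = 0.0296, edgeR), with −1.69 within batch 1 (adjusted p = 0.185) and −1.96 within batch 2 (adjusted p = 0.0268). It no longer passed with no filter on low counts (adjusted p = 0.0536) or without a batch term (adjusted p = 0.0581). Tbx21 was lower at onset in 6 of 10 mice, at −1.27 ± 0.44 on the log2 scale, and did not pass (adjusted p = 0.110). At onset Tbx21 ran from 0.167 to 0.540 CPM in batch 1 and from 0.0288 to 1.06 CPM in batch 2.

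Genes of cytotoxic and NK cells fell over the same interval. Of 9 tested, 4 fell and none rose between −5 weeks and onset, where 0.945% of all genes fell and 0.827% rose. Among the 4 were Ncr1, an NK cell receptor (−2.00, adjusted p = 0.0231, edgeR), Nkg7, a granule protein (−1.81), and Klrk1, which encodes NKG2D (−1.59). The median of the list was −1.59 beside −0.02 over all genes. The summed level of these genes had a median of 9.52 CPM in batch 1 and 28.1 CPM in batch 2 at −5 weeks, and 5.57 and 8.11 CPM at onset. Cd4 also fell, by 1.52 on the log2 scale (adjusted p = 0.0395, edgeR), as did Il12rb2, the receptor chain of the Th1 pathway (−1.0, adjusted p = 0.0431, edgeR). With T cell content as a covariate the Eomes change was −1.08 and no longer passed (adjusted p = 0.139). From 6 weeks to −5 weeks to onset as a whole, Eomes changed by −0.10 ± 0.36 and Tbx21 by −0.21 ± 0.35, and neither passed. With that covariate both passed, Tbx21 at −1.30 (adjusted p = 0.000267, edgeR) and Eomes at −1.16 (adjusted p = 0.0017). The part of the cytotoxic and NK gene levels in these results was not tested.

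Across samples, Tbx21 and Eomes had Pearson correlations of their log2 levels of 0.88 in batch 1 (74 samples) and 0.83 in batch 2 (46 samples), which share mice and libraries. Among 15263 genes with a mean of 1 CPM or more, those most like Eomes were Il2rb (0.937 and 0.922), the receptor chain for IL-2 and IL-15, Ctsw (0.891 and 0.916), a cathepsin of cytotoxic cells, and Sh2d2a. Those most like Tbx21 were Ctsw (0.907 in batch 1), Il2rb and Eomes itself (0.879 and 0.828).

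**Figure D4:**
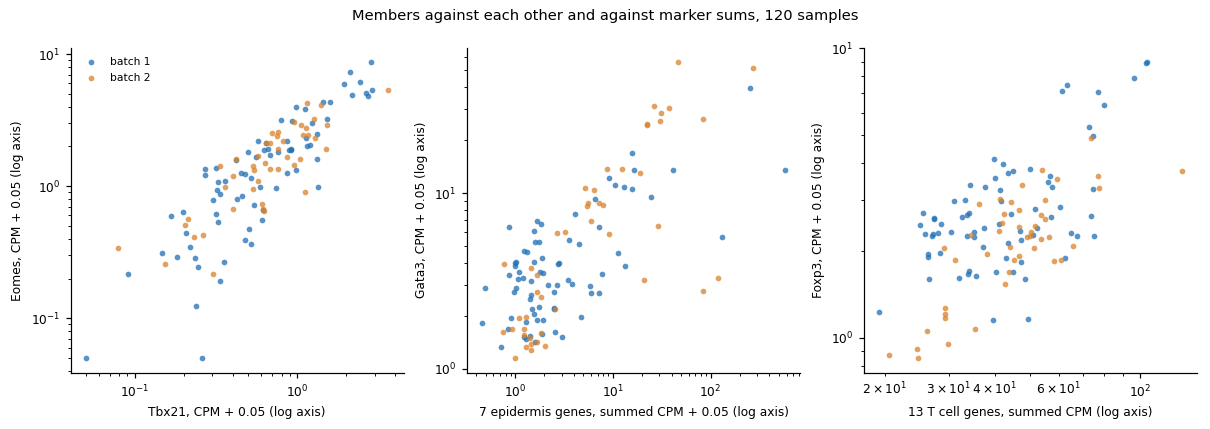
Eomes against Tbx21, Gata3 against the summed level of 7 epidermis genes, and Foxp3 against that of 13 T cell genes, in CPM on log axes, 1 point per sample (blue, batch 1; orange, batch 2; 120 samples). Eomes and Tbx21 form a band over the whole range, and the 10 samples with Gata3 above 20 CPM all have an epidermis sum of at least 22.2 CPM.

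The Th2 factor Gata3 rose in progressors and varied most of the 8 factors relative to its mean over samples in each batch. In batch 1 its levels at 6 weeks were 5.11, 2.97, 1.57, 4.57 and 1.47 CPM, at −3 weeks 2.85, 39.5, 11.0, 2.15 and 10.7 CPM, and at onset 3.89, 2.21, 3.51, 3.81 and 17.0 CPM. In batch 2 its levels at 6 weeks were 1.51, 1.93, 1.23, 2.74 and 2.15 CPM, at −5 weeks 3.36, 3.70, 8.76, 3.23 and 26.3 CPM, and at onset 8.45, 51.4, 5.78, 6.94 and 5.90 CPM. The ranges overlapped between 6 weeks and onset in batch 1, and they did not overlap in batch 2. The log2 fold change from 6 weeks to −5 weeks to onset was 1.83 ± 0.56 (SE, adjusted p = 0.00749, edgeR), at 1.17 within batch 1 (adjusted p = 0.135) and 2.61 within batch 2 (adjusted p = 0.0277), and the mean of those times exceeded the 6-week level in 9 of 10 mice. At −7 weeks the change was 1.96 ± 0.72 and did not pass (adjusted p = 0.0593), with 55.5 and 31.5 CPM in mice 7 and 10 and 1.10 to 2.68 CPM in the 6 others. It passed within batch 2 (2.67, adjusted p = 0.0492, edgeR), with DESeq2 (adjusted p = 0.0240) and without a batch term (2.11, adjusted p = 0.0210, edgeR). Under the other settings it did not pass, among them the epidermis covariate (1.12, adjusted p = 0.145, edgeR) and the mouse as a block (2.07, adjusted p = 0.0900, edgeR).

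Gata3 levels went with those of skin genes, and the part of skin in the Gata3 result was not tested beyond a covariate. In the 10 samples with more than 20 CPM of Gata3, the 7 epidermis genes summed to between 22.2 and 273 CPM, against medians of 1.82 CPM over batch 1 and 5.27 CPM over batch 2. The genes most like Gata3 were the epithelial genes Cldn4 (0.852 and 0.976), Epcam (0.833 and 0.960) and Esrp1 (0.961 in batch 2). Its correlation with the mean log2 level of the T cell genes was 0.24 in batch 1 and 0.33 in batch 2. That with the epidermis genes was 0.64 and 0.65. With the Th2 and innate lymphoid genes it was 0.55 and 0.85, and with the Th17 genes 0.27 and 0.85, so in batch 2 both exceeded the epidermis value. With the epidermis genes as a covariate, the Gata3 change from 6 weeks to −5 weeks to onset was 0.87 and no longer passed (adjusted p = 0.0714, edgeR). In nonprogressors the same covariate went the other way: the Gata3 slope with age was 0.09 ± 0.05 per week without it (adjusted p = 0.124) and 0.13 ± 0.03 with it (adjusted p = 0.00240). The nonprogressor slope also passed with 6 and 14 weeks alone (0.29, adjusted p = 0.00433, edgeR) and within batch 2 (0.43, adjusted p = 0.000127), and was at −0.0033 within batch 1. In progressors, all 7 hair follicle genes tested rose from 6 weeks to −5 weeks to onset, with a median of 4.71. In that comparison 1 of 7 epidermis genes rose (Krt14, a basal keratin, by 2.69), and 19.6% of all genes rose. Of the Th2 and innate lymphoid genes, 3 of 6 tested rose there, led by Ccr4 (1.96), a receptor of Th2 cells and Tregs. Ccr8, which is also counted in the Treg list, and Il17rb followed. The 6-week IN of nonprogressor mouse 4 had the highest epidermis sum, 578.7 CPM, with Gata3 at 13.5 CPM.

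Bcl6 rose from 6 weeks in both batches, by more in batch 2, though the difference between the batches did not pass (0.32 ± 0.15 SE, adjusted p = 0.192, edgeR). In batch 1 its levels were 40.5, 41.9, 42.3, 57.7 and 58 CPM at 6 weeks, 53.5, 60.9, 60.7, 48.7 and 58.3 CPM at −5 weeks, and 62.6, 46.6, 86.7, 56.6 and 74.2 CPM at onset. In batch 2 they were 46.2, 63.8, 41.6, 57.5 and 49.4 CPM at 6 weeks, 68.8, 70.2, 59.1, 59.6 and 74.8 CPM at −5 weeks, and 84.6, 114, 123, 98.4 and 104 CPM at onset. Onset lay above −5 weeks without overlap in batch 2, and the times overlapped in batch 1. The log2 fold change from 6 weeks to −5 weeks to onset was 0.45 ± 0.08 (SE, adjusted p = 3.94e-06, edgeR), at 0.30 within batch 1 (adjusted p = 0.0436) and 0.61 within batch 2 (adjusted p = 4.67e-06). Between −5 weeks and onset it was 0.43 ± 0.09 (adjusted p = 0.0159, edgeR), with 0.21 in batch 1 (adjusted p = 0.451) and 0.67 in batch 2 (adjusted p = 0.000502). With T cell content as a covariate the latter change was 0.39 (adjusted p = 0.0579). The follicular helper genes gave 3 of 7 that rose from 6 weeks to −5 weeks to onset, where 19.6% of all genes rose. They were led by Icos (1.61), a costimulatory receptor, with Cxcr5 (0.59), the receptor that guides cells into follicles, and Cd200 (0.29). Of the B cell genes 6 of 7 rose too. Bcl6 itself followed T cell genes weakly over samples (0.23 in batch 1 and 0.26 in batch 2), and the genes most like it were Atmin (0.886 and 0.860), F730311O21Rik and Rbm47.

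Tcf7 and Tox, which mark naive or memory and dysfunctional T cells, showed no change that passed. In batch 1 progressors Tcf7 ran from 1.83 to 2.64 CPM at 6 weeks and from 1.25 to 1.71 CPM at onset, and Tox from 0.681 to 1.65 and from 0.224 to 0.870 CPM. In batch 2 Tcf7 ran from 1.01 to 2.23 CPM at 6 weeks and from 0.662 to 6.89 CPM at onset, and Tox from 0.388 to 0.878 and from 0.164 to 1.27 CPM. The log2 fold changes from 6 weeks to −5 weeks to onset were 0.15 ± 0.27 for Tcf7 and 0.03 ± 0.31 for Tox, and they had opposite signs in the batches (Tcf7 −0.44 and 0.88, Tox −0.68 and 0.91, batch 1 first). With T cell content as a covariate Tox passed, at −0.92 (adjusted p = 0.000895, edgeR). Of 7 naive and memory genes, Il7r (0.41), the IL-7 receptor, and Lef1 (1.73), a partner of TCF-1, rose, and Klf2 (−0.64), a quiescence factor, fell. In that comparison 39.5% of all genes passed in either direction and 19.6% rose, so these counts do not set the list apart. The genes most like Tcf7 were Gimap3 (0.836 and 0.775), Sh2d2a and Ltb.

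All 8 factors had a larger log2 fold change in batch 2 than in batch 1 from 6 weeks to −5 weeks to onset, and Tbx21 (−0.95 and 0.75), Eomes (−0.95 and 1.12), Ikzf2, Tcf7 and Tox had opposite signs. Tested as an interaction of batch and time, the difference passed for Foxp3 (0.92 ± 0.28 SE, adjusted p = 0.0465, edgeR), 1 of 8 where 4.66% of genes passed. It did not pass for Eomes (2.08 ± 0.69, adjusted p = 0.0649), Tox (1.60 ± 0.56, adjusted p = 0.0779), Tbx21 (1.71 ± 0.70, adjusted p = 0.137) or the 4 others. The batches used different sequencers and, at these times, different mice, and these cannot be told apart. In nonprogressors between 6 and 14 weeks, the same test passed for Gata3 (3.27 ± 0.77, adjusted p = 0.0314), 1 of 8 where 3.15% of genes passed: in batch 2 Gata3 ran from 1.29 to 3.15 CPM at 6 weeks and from 3.9 to 30.5 CPM at 14 weeks.

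**Figure D5:**
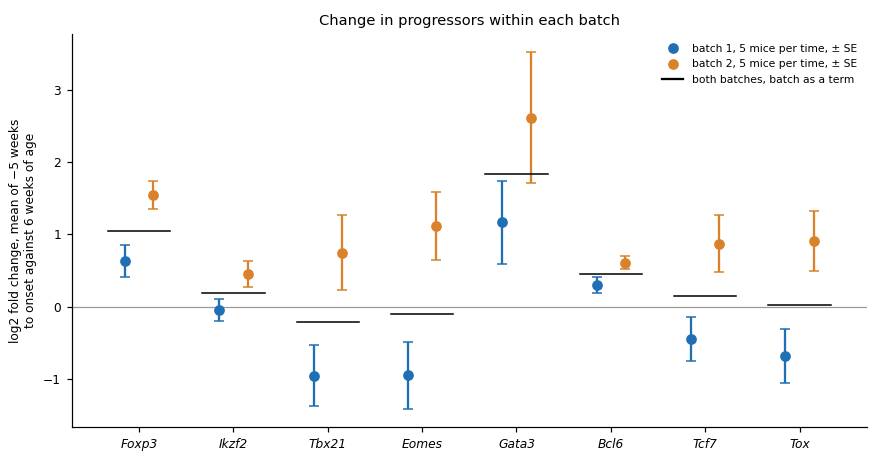
The log2 fold change of each factor from 6 weeks of age to the mean of −5 weeks to onset in progressors, within batch 1 (blue) and batch 2 (orange) with SE, and with both batches together (black bar). The batch 2 value exceeds the batch 1 value for all 8 factors, and 0 lies between them for Tbx21, Eomes, Tcf7, Tox and Ikzf2.

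The outcome groups were compared at 6 weeks, before any progressor was hyperglycemic, and late in the course. At 6 weeks no factor passed. The largest differences were in Eomes (−0.44 ± 0.33), Tbx21 (−0.37 ± 0.32) and Tox (−0.36 ± 0.24), progressors minus nonprogressors, and Foxp3 differed by −0.14 ± 0.21. The Foxp3 difference had opposite signs in the batches and passed in neither. In batch 1 it ran from 1.54 to 2.35 CPM in progressors and from 1.10 to 1.58 CPM in nonprogressors (0.45, adjusted p = 0.735, edgeR), and in batch 2 from 0.801 to 1.22 CPM and from 0.823 to 2.21 CPM (−0.62, adjusted p = 1.0, edgeR). At onset against 14-week nonprogressors, the Eomes difference was −1.29 ± 0.31 and that of Bcl6 0.39 ± 0.10 on the log2 scale, both at adjusted p = 0.119 with edgeR, and both passed with DESeq2 (Eomes, adjusted p = 0.00529; Bcl6, adjusted p = 0.0262). Eomes in 14-week nonprogressors was at 1.82, 1.84, 1.10 and 1.19 CPM in batch 1 and from 1.36 to 2.28 CPM in batch 2, above all onset samples of its own batch. Within batch 1 neither passed with edgeR (Eomes −1.28, adjusted p = 0.889; Bcl6 0.17, adjusted p = 0.906), and within batch 2 both did (Eomes −1.31, adjusted p = 0.0304; Bcl6 0.57, adjusted p = 0.0121). Ages at onset were not matched to 14 weeks.

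Between the strains, with the batch 1 INs of each mouse summed (9 NOD and 5 NOR mice), no factor passed. Tox was at −0.43 ± 0.14 (SE, adjusted p = 0.0628, edgeR): the mouse levels ran from 0.485 to 1.00 CPM in NOD (median 0.704) and from 0.879 to 1.09 CPM in NOR mice (median 0.972). Gata3 was at 0.76 ± 0.32 (adjusted p = 0.157), with 2.73 to 9.32 CPM in NOD and 2.09 to 6.35 CPM in NOR mice, and passed without NOR mouse 5 (1.14, adjusted p = 0.0304). Skin genes lay the same way: all 7 epidermis genes tested had values above 0 with a median of 4.00 and none passed (Krt1, 7.23, adjusted p = 0.0515), and the 7 hair follicle genes had a median of 7.41 with none passing. Of 8 macrophage genes 4 were lower in NOD, led by C1qb (−0.88), C1qa (−0.50) and Csf1r (−0.26), where 8.98% of all genes passed in either direction. Without nonprogressor mouse 3, Tox passed (−0.50, adjusted p = 0.0184). Ikzf2 was at −0.18 ± 0.07, with 5.28 to 6.88 and 5.84 to 7.36 CPM. Of the T cell genes, Lat, a signalling adaptor, was higher in NOD (0.92) and Cd4 lower (−1.13), and of 28 other T cell transcription factors Bach2 (−0.18) and Id3 (−0.50) were lower.

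With age, Eomes fell in NOR mice. Its levels were 1.87, 1.75, 0.195 and 1.27 CPM at 6 weeks, 4.74, 2.93, 2.25, 3.05 and 3.92 CPM at 10 weeks, and 0.312, 0.143, 0.569, 0.732 and 0.166 CPM at 22 weeks. The 10-week samples lay above all later ones but 1 at 14 weeks, and the 22-week samples lay below all 10-week ones. The slope was −0.18 ± 0.05 (log2 per week, SE, adjusted p = 0.0444, edgeR), and it did not pass with the mouse as a block (adjusted p = 0.0730), or without NOR mouse 1 (0.271), 2 (0.158), 3 (0.0650) or 5 (0.117). Without NOR mouse 4 it passed, and so did Tox (−0.092, adjusted p = 0.0439, edgeR). The cytotoxic and NK genes gave 3 of 9 that fell with age in NOR mice, Klre1 (−0.21), Klrd1 (−0.15) and Ncr1 (−0.13), where 1.59% of all genes fell. Without the 18-week library of NOR mouse 5, 1 of 2 with Eomes at 0 counts, the slope still passed (adjusted p = 0.0382).

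In nonprogressors Foxp3 rose by 0.07 ± 0.02 and Bcl6 by 0.03 ± 0.007 on the log2 scale per week (SE; adjusted p = 0.00836 and 0.00200, edgeR). Foxp3 in batch 1 was at 1.58, 1.10, 1.11 and 1.56 CPM at 6 weeks, 3.92, 3.65, 3.77 and 4.10 CPM at 14 weeks, and 1.77, 2.64, 3.57 and 2.01 CPM at 22 weeks. At 10 weeks it was at 1.83, 2.55, 2.26 and 1.18 CPM and at 18 weeks at 2.43, 2.74, 7.40 and 3.28 CPM, with the highest sample at 18 weeks and the highest median, 3.85 CPM, at 14 weeks. That highest sample, of mouse 3, was the library with the lowest depth (4722396 counts). The 6-week samples lay below all 14-week and 22-week ones. Between 6 and 14 weeks it was higher at 14 weeks in 9 of 10 mice, and Bcl6 in 10 of 10 (in batch 1, 40.9, 42.1, 45.3 and 39.6 against 53.4, 60.4, 63.1 and 56.4 CPM). Within a single batch the Foxp3 slope was 0.07 (adjusted p = 0.0568, batch 1) and 0.08 (adjusted p = 0.0781, batch 2), and with T cell content as a covariate it was 0.04 (adjusted p = 0.157, edgeR). The Bcl6 slope was 0.02 in batch 1 (adjusted p = 0.122) and 0.07 in batch 2 (adjusted p = 0.00019). Both slopes rest on the 6-week samples: without them Foxp3 was at 0.02 (adjusted p = 0.714) and Bcl6 at −0.0029 (adjusted p = 0.885). The Foxp3 slope of NOR mice minus that of nonprogressors within batch 1 was −0.06 ± 0.03 and did not pass (adjusted p = 0.269). The 6-week samples came from the first scaffold of each mouse.

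From 6 weeks to −5 weeks to onset in progressors, where 19.6% of all genes rose and 19.9% fell, 10 of 12 T cell genes rose, led by Cd5 (1.2), Zap70 (0.98) and Cd2 (0.84), with a list median of 0.88 beside 0.01 over all genes. Of 10 Treg genes 4 rose and 1 fell, with Ccr8 (3.93), a chemokine receptor of tissue Tregs, Ctla4 (2.21), a checkpoint receptor, and Tnfrsf4 (0.54), which encodes OX40, in front. Of 8 Th1 genes 2 rose (Cxcr6, 0.80, and Havcr2, 0.34), of 3 Th17 genes 1 rose (Ccr6, 1.12), and of 9 cytotoxic and NK genes 1 rose (Klrb1c, 1.01). Of 28 other T cell transcription factors 7 rose and 3 fell, with Nfatc2 (−0.54), Maf (−0.40) and Ikzf1 (0.21) first by p. The shares that rose among the Th1 genes and the other transcription factors were close to that over all genes. Of 8 macrophage genes 1 fell, and of 5 endothelial genes 4 fell. At −7 weeks, where 5.91% of all genes rose, 2 of 12 T cell genes (Cd5, 0.90, and Cd8a, 1.40) and 3 of 6 Th2 and innate lymphoid genes rose. Of 10 Treg genes, Ccr8 (3.13) and Ctla4 (1.73) rose, while Lrrc32 (−0.47), which encodes GARP of activated Tregs, fell. With age in nonprogressors, where 13.3% of all genes rose, 3 of 7 follicular helper genes (Cd200, Cxcr5 and Tox2) and 4 of 7 B cell genes rose. Foxp3 levels were most like those of Icos (0.789 and 0.891), Cd6 and Zfp831 over samples, and those of Ikzf2 were most like Cd3e (0.708 and 0.692), Gimap3 and Grap2.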

How the data were processed

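Total RNA of INs was sequenced after ribosomal RNA depletion on one NovaSeq model for batch 1 and another (NovaSeq X) for batch 2. The authors deposited 2 tables of expected counts per gene, and the submitters' processing notes name cutadapt, FastQC, STAR, RSEM, MultiQC and GRCm38, without versions. These estimated counts were rounded to whole numbers, and 5 reporter rows of batch 1 were left out. Groups came from the sample labels.

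Here edgeR 4.0.16 (R 4.3.3) fitted quasi-likelihood models over all genes kept by filterByExpr, with TMM scaling, batch as a term where groups spanned both, and Benjamini-Hochberg adjustment (threshold 0.05). CPM are TMM-scaled. DESeq2 1.42.0, other scaling, no filter, leaving out mice, single batches, T cell or epidermis covariates and a mouse block were alternatives. The scripts were tested on simulated data. Figures used matplotlib 3.10.9. Each NOD against NOR value sums the INs of a mouse.

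All 8 factors are named in every comparison in which they are described, with up to 3 genes per companion list by smallest p and the 3 genes most like each factor over samples (Pearson correlation of log2(CPM + 0.5), averaged over batches; for Tox this result is not reported here). The members and lists (T cell, Treg, Th1, Th2 and innate lymphoid, Th17, follicular helper, naive and memory, cytotoxic and NK, other T cell transcription factors, B cell, macrophage, epidermis, hair follicle, endothelial) were chosen with earlier results of these data known. The lists share some genes, such as Ccr8 in the Treg list and in the Th2 and innate lymphoid list. The epidermis covariate, the fits without 6-week samples, those with 6 and 14 weeks only or nonprogressors of batch 2 only, and the batch interactions were chosen after seeing the data.

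Mouse numbers in the labels were taken to mark the same animal, so they pair samples, except for those labelled by day after implant. Over 2000 genes, deviations from group means correlated at −0.0199, 0.00377 and −0.0227 between INs of the same mouse (NOR, nonprogressors, progressors) and at 0.00617, −0.00216 and 0.00535 between mice. Of 416 replicate pairs none were alike within counting error (chi-square over degrees of freedom at least 12.0). Gene positions are from GENCODE M21 and promoter windows from RefSeq, both on GRCm38. Library strandedness is not given in the sources used here.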

Additional observations from a re-analysis of the deposited data

Results flagged for a closer look

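In 13 of 184 sets of 4 to 8 samples, 1 sample lay far from the others of its group and batch by Dixon's criterion, where chance gives about 1 in 20. Gata3 had 5 of these: 51.4 CPM at onset in progressor mouse 7 (batch 2), 17.0 CPM at onset in progressor mouse 5 (batch 1), 7.57 CPM at 10 weeks in NOR mouse 5 and 3.15 CPM at 6 weeks in nonprogressor mouse 5 (batch 2) were high, and 2.50 CPM at −3 weeks in progressor mouse 8 was low. For Foxp3, progressor mouse 6 was high at −7 weeks (3.25 CPM). For Ikzf2, progressor mouse 1 was low at 6 weeks (4.35 CPM) and progressor mouse 3 at onset (3.21 CPM), both in batch 1. Tbx21 was high in nonprogressor mouse 3 at 22 weeks (1.15 CPM) and in NOR mouse 1 at 10 weeks (2.69 CPM). Bcl6 was low in NOR mouse 5 at 18 weeks (10.7 CPM), the library with 85.7% of its counts on 1 gene row. Eomes was high in nonprogressor mouse 3 at 6 weeks (6.13 CPM, batch 1), and Tox in the same mouse at 18 weeks (2.78 CPM), in the library with the lowest depth (4722396 counts).

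The 6 nonprogressor samples labelled by days after implant entered no test. Their labels give no age in weeks. They do give mouse numbers (1 and 2), but whether these are the mice of those numbers in the other samples was left unsettled. All 6 lay above the highest of the 23 NOR samples of the same batch for Foxp3 (median 7.42 CPM, NOR highest 4.95 CPM), Ikzf2 (median 10.9 CPM, NOR highest 8.58 CPM) and Eomes (median 5.60 CPM, NOR highest 4.74 CPM). They overlapped the other 20 nonprogressor samples of batch 1: the lowest day-labelled and the highest other value were 5.28 and 7.40 CPM for Foxp3, 8.65 and 9.71 CPM for Ikzf2, and 4.83 and 6.13 CPM for Eomes. For Foxp3 the overlap rests on the 18-week library of nonprogressor mouse 3, which had the lowest depth (4722396 counts). The other Foxp3 values of these nonprogressors lay below the lowest day-labelled one. The summed T cell genes, in which Lat weighs most, ran from 72.8 to 104.8 CPM in the 6 day-labelled samples. They ran from 24.9 to 74.9 CPM in the NOR samples and from 19.3 to 64.9 CPM in the other 20 nonprogressor samples of batch 1. The part of T cell content in these levels was not tested.

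The change of Foxp3 from 6 weeks to −5 weeks to onset differed between the batches by 0.92 on the log2 scale, and that of Gata3 between 6 and 14 weeks in nonprogressors by 3.27, each by an edgeR interaction test.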

How the results depend on the processing

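The tests of the report were repeated under other settings, and for the factors named below the direction or the call changed; the cause was not tested. The number of the 8 factors that passed with DESeq2 was 1 for NOD against NOR, 2 for NOR age, 2 for onset against 14-week nonprogressors and 2 at −7 weeks. Of all genes, 551 passed with DESeq2 for onset against 14-week nonprogressors and 3163 at −7 weeks. For NOR age, the counts over all genes with DESeq2, with the T cell covariate and without 6-week samples close this section. The DESeq2 count over all genes for NOD against NOR is not reported here. With no filter the number of factors was 0 for NOR age and 1 for onset against −5 weeks, where 103 genes passed. With the epidermis covariate, 0 passed for NOR age and 3 for nonprogressor age (Gata3 added), where 6556 genes passed in the latter. Signs turned with it for NOD against NOR in Tbx21 (0.15), Bcl6 (0.038) and Eomes (0.26), for the slope difference in Gata3 (−0.011) and at 6 weeks in Gata3 (0.23). They also turned for −5 weeks to onset in Eomes (0.015) and Tcf7 (−0.031) and at −7 weeks in Tbx21 (−0.0056). With the T cell covariate, 3 passed for NOR age and 4 for nonprogressor age, where 5790 genes passed in the latter. None passed at −7 weeks or for onset against −5 weeks. For −5 weeks to onset 6 passed (Foxp3, Tbx21, Gata3, Bcl6, Eomes and Tox), where 8949 genes passed. Signs turned for NOR age in Bcl6 (−0.00014) and for −5 weeks to onset in Ikzf2 (−0.15), Tcf7 (−0.43) and Tox (−0.92). They turned at −7 weeks in Ikzf2 (−0.071), Tbx21 (−0.55), Eomes (−0.16), Tcf7 (−0.32) and Tox (−0.19). They also turned for onset against −5 weeks in Tcf7 (0.17) and against 14-week nonprogressors in Foxp3 (0.018) and Gata3 (0.012).

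For NOD against NOR, 6-week biopsies alone gave Foxp3 −0.49, Tbx21 0.78 and Eomes 0.83, nonprogressor mice alone gave Tbx21 0.23, Eomes 0.16 and Tcf7 −0.012, and each biopsy taken separately gave 1 factor (Gata3, 0.87) and Bcl6 0.044. With the mouse as a replicate block, 0 passed for NOR age (Bcl6 −0.0010), and Tbx21 was at −0.22 at −7 weeks; the block changed no other call of a factor. With 18 and 22 against 6 and 10 weeks, NOR Bcl6 was at −0.022, and in nonprogressors 1 factor passed and Tox was at 0.059. In batch 1 alone, 1 passed for nonprogressor age (Ikzf2 −0.03, adjusted p = 0.0346, edgeR), where 4004 genes passed, and 0 for onset against −5 weeks. Signs turned for nonprogressor age (Gata3 −0.0033), at 6 weeks (Foxp3 0.45, Tox 0.067), against 14-week nonprogressors (Gata3 0.083, Tcf7 −0.062) and for −5 weeks to onset (Ikzf2 −0.046, Tcf7 −0.44, Tox −0.68). In batch 2 alone, 4 passed for nonprogressor age (Gata3, Bcl6, Ikzf2 and Eomes), where 6710 genes passed. There 2 passed against 14-week nonprogressors (Bcl6 and Eomes, 2001 genes) and 3 at −7 weeks (Foxp3, Gata3 and Eomes, 4077 genes). Signs turned in batch 2 for nonprogressor age (Ikzf2 0.036, Eomes 0.12, Tbx21 0.079, Tcf7 0.067, Tox 0.026) and against 14-week nonprogressors (Foxp3 0.30). They also turned at 6 weeks (Gata3 0.19) and for −5 weeks to onset (Tbx21 0.75, Eomes 1.12). Without a batch term, Foxp3 was at 0.050 at 6 weeks and 1 factor passed for onset against −5 weeks. For nonprogressor age 3 then passed, where 7620 genes passed, with Ikzf2 added (−0.030, adjusted p = 0.0446, edgeR). At −7 weeks 1 passed, where 3702 genes passed, and it was Gata3 (adjusted p = 0.0210, edgeR) in place of Foxp3 (adjusted p = 0.183). Without 6-week samples, 2 passed for NOR age and 0 for nonprogressor age. Signs then turned for NOR age in Gata3 (−0.0027) and Bcl6 (−0.0055), and for nonprogressor age in Bcl6 (−0.0029) and Tox (0.012). With 6 and 14 weeks alone, nonprogressor slopes were 0.017 (Ikzf2), 0.0041 (Tbx21), 0.028 (Eomes) and 0.024 (Tcf7). Leaving out each mouse in turn gave 0 to 1 factors for NOD against NOR (Foxp3 −0.0026 to 0.14, Tbx21 −0.38 to 0.044, Bcl6 −0.045 to 0.0022), 0 to 2 for NOR age (Foxp3 −0.0027 to 0.020, Bcl6 −0.0037 to 0.0083), and for the slope difference Tcf7 −0.050 to 0.0029 and Gata3 −0.047 to 0.068.

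Counts over all genes moved by over 1.5 times in these cases. NOD against NOR gave 2101 genes and 403 with 6-week biopsies. NOR age gave 704, and 1807 with DESeq2, 1147 with the T cell covariate, 1868 with grouped ages, 1303 without the 18-week library of NOR mouse 5, 2359 without 6-week samples and 117 to 890 leaving out mice. Nonprogressor age gave 6378, 4024 with grouped ages, 4004 in batch 1 and 1482 without 6-week samples. The slope difference gave 341, and 1077 with DESeq2, 221 with no filter, 686 without that library and 10 to 709 leaving out mice. Onset against 14-week nonprogressors gave 3, and 551 with DESeq2, 5 with RLE, 1 and 16 with the T cell and epidermis covariates, 0 in batch 1 and 2001 in batch 2. The change to −5 weeks to onset gave 8403 and 5317 in batch 1, that at −7 weeks gave 2670, 883 with the block and 4077 in batch 2. Onset against −5 weeks gave 377, and 830 with DESeq2, 103 with no filter, 42 with the T cell covariate, 14 without a batch term, 1 in batch 1 and 1973 in batch 2. Of the 8 factors Gata3 had the largest SE in the progressor comparisons and in NOD against NOR.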
